A study of Mus musculus with 30 samples.

Results

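The 34 genes described here encode subunits of the vacuolar proton pump (V-ATPase), enzymes and membrane proteins of the lysosome, and the transcription factors Tfeb and Tfe3. They were chosen by name, with earlier results of these data known, and matched to their Ensembl gene identifiers. Setting their counts beside the shares of all genes is therefore not an independent test of the list. All 34 were found in both count tables, among 52630 genes in the time course and 55487 in the passage experiment, and all 34 passed the filter on low counts in both. By role, 14 belong to the V-ATPase, 12 are hydrolases or their activators, 6 are membrane proteins, lipid carriers, a channel or an autophagy receptor, and 2 are factors.

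The measurements are RNA-seq counts per gene in E14tg2a, a mouse embryonic stem cell (ESC) line. In the time course, ESCs were in Serum/LIF (serum with the cytokine LIF, labelled 0 h) or in EMM for 3, 9 or 24 h, with 3 libraries per group and 12 in all. EMM is the Serum/LIF medium in which D-galactose takes the place of D-glucose and pyruvate. In the passage experiment, the same line spent 10 passages (P10) or 20 passages (P20) in EMM, in 2i/LIF (LIF with inhibitors of the kinases GSK3 and MEK) or in Serum/LIF, with 3 libraries per group and 18 in all. Every group carries LIF and stands for 1 cell line. The study counts 2i/LIF among defined conditions, whereas Serum/LIF and EMM contain serum. Serum, base medium and inhibitors cannot be told apart in any comparison with 2i/LIF. The labels give the time-course control as 0 h, while their treatment text speaks of 24 h in Serum/LIF. Library totals ran from 24074132 to 35301962 counts in the time course and from 6944918 to 27912959 in the passage experiment. The 8 ESC markers examined, Pou5f1 and Nanog among them, were detected in every group of both experiments. In bulk RNA, fewer cells of a type and less RNA per cell cannot be told apart.

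The lysosome is an acidic compartment that breaks down proteins, glycans, lipids and glycogen delivered by endocytosis and autophagy. The V-ATPase, a cytosolic V1 sector that hydrolyses ATP on a membrane V0 sector that moves protons, keeps it acidic and takes part in nutrient sensing at its surface. Tfeb and Tfe3 belong to the MiT/TFE factors, which are held in the cytosol in fed cells and enter the nucleus on nutrient stress, where they bind E-box elements near lysosomal and autophagy genes.

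Sequences around the start sites of these genes are shown because E-box elements are the sequences that MiT/TFE factors are known to bind at lysosomal genes, and because most members moved together. RefSeq promoter windows (GRCm38.p6, 250 bases before to 50 after a start site) were at hand for 28 of the 34. Stretches of 6 of them follow, 5′ to 3′ on the gene's strand, with each E-box core CACGTG in capitals.
Lamp1: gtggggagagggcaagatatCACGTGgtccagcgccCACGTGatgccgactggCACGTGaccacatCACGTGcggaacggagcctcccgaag
Mcoln1: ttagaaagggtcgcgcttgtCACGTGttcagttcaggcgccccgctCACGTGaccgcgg
Atp6v0b: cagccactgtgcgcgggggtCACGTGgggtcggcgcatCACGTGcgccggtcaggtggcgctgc
Glb1: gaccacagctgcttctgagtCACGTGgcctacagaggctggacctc
Gaa: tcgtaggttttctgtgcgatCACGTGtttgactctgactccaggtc
Gla: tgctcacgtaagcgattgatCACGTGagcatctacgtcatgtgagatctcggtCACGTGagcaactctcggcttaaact

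These stretches lie at chr8:13159080-13159171 (plus strand) for Lamp1, chr8:3500428-3500486 (plus) for Mcoln1, chr4:117887322-117887385 (minus) for Atp6v0b, chr9:114401010-114401055 (plus) for Glb1, chr11:119267803-119267848 (plus) for Gaa and chrX:134601174-134601252 (minus) for Gla. Lamp1, a main glycoprotein of the lysosomal membrane, held 4 cores, at 61, 45, 28 and 15 bases before its start site. Mcoln1, the lysosomal calcium channel, and Atp6v0b, a proton-carrying V0 subunit, held 2 each. Gla, whose RNA did not rise in EMM, also held 2.

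In all, CACGTG, which reads the same on both strands, was in the windows of 12 of the 28 members (42.9%), against 8.09% of 27025 genes and 7.15% of their 32851 windows of the same length. The genes that passed the filter held it more often than all genes: 1308 of them outside the members held it and 10100 did not. The longer TCACGTG, searched on both strands and containing CACGTG, was in 11 members (39.3%), 4.29% of genes and 3.77% of windows. Outside the members, 768 genes that passed the filter held it and 10640 did not. The palindrome TCACGTGA was in 7 members (25.0%), 1.12% of genes and 0.97% of windows, and in 225 genes outside the members that passed the filter, where 11183 lacked it. TCATGTG, the M-box, was in 4 members (14.3%), 4.31% of genes and 3.77% of windows. A match says only that these letters are in the window. Since E-box elements are known from lysosomal genes, their share in a list of such genes is not a result of these counts. The median log2 fold change of EMM against Serum/LIF was 0.51 at 3 h in the 12 members with CACGTG and 0.38 in the 16 without it, and 0.59 and 0.63 at 24 h. For TCACGTG it was 0.54 and 0.39 at 3 h, and 0.56 and 0.65 at 24 h. For TCACGTGA the order at 3 h was the other way, 0.35 and 0.49, and 24 h gave 0.51 and 0.65. Outside the members, 29.1% of genes with CACGTG were higher at 3 h, against 16% without it, and 38.7% against 17.1% for TCACGTGA. At 24 h the shares for CACGTG were 26.1% and 22.4%. The part of the motifs in these changes was not tested.

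**Figure D1:**
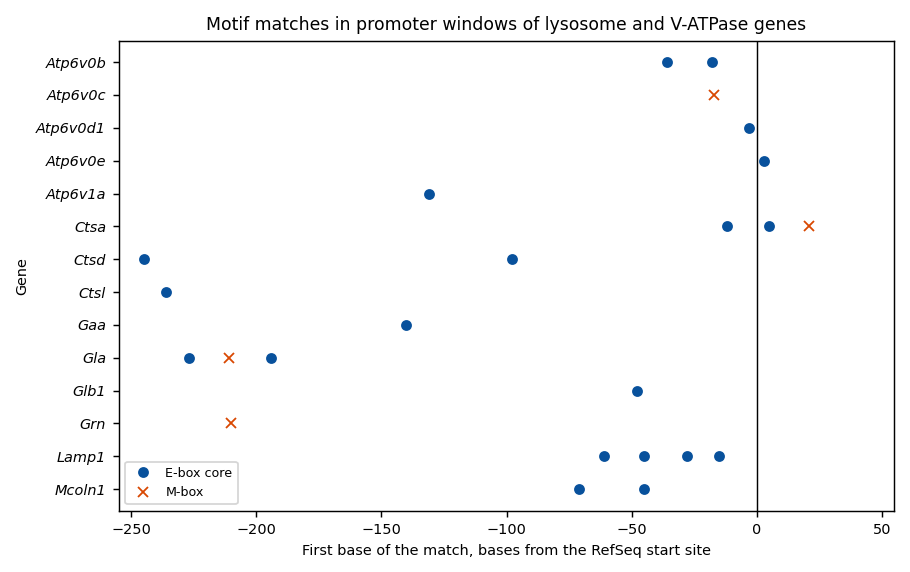
Position of each E-box core (circles) and M-box (crosses) in the promoter window, in bases from the RefSeq start site (vertical line at 0), for the members that hold one. The 4 cores of Lamp1 lie within 61 bases before its start site, while those of Gla lie 227 and 194 bases before it.

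Before any change of medium, the members differed widely in level. Scaled to library size and exon length (CPM per kilobase, mean ± SD, n = 3 Serum/LIF libraries of the time course), Lamp1 stood highest at 158 ± 1.14. Among the V-ATPase genes, the V0 subunit Atp6v0d1 came first at 70.5 ± 1.89, and the V0 subunit Atp6v0a1, at 7.90 ± 0.159, was the lowest apart from Atp6v0c, the proteolipid that forms the proton-carrying ring, at 2.51 ± 0.221. Between them came the V1 subunits Atp6v1g1 (52.5), Atp6v1b2 (50.9), Atp6v1f (49.2), Atp6v1a (40.4), Atp6v1e1 (27.5), Atp6v1d (23.6), Atp6v1c1 (19.9) and Atp6v1h (11.2), the V0 subunits Atp6v0b (35.8) and Atp6v0e (16.5), and the accessory subunit Atp6ap1 (20.9).

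The low level of Atp6v0c is uncertain. Its processed pseudogene Atp6v0c-ps2 matches it over 465 bases at 99.785% identity, and in the time course the pseudogene had 604 to 658 normalized counts in Serum/LIF and 980 to 1111 after 24 h of EMM, above Atp6v0c itself. In the passage table the order was the other way, with 154 to 448 normalized counts for the pseudogene at P10 in Serum/LIF, 2i/LIF and EMM against at least 2466 for Atp6v0c. Atp6v1g1 shares 357 bases at 99.44% with the pseudogene Gm13453, which took 208 to 626 normalized counts in the time course and at most 9.40 in the passage table. Atp6v1f matches a pseudogene over 202 bases at 98.515%. Atp6v1a matches a pseudogene less closely, over 296 bases at 90.203%. Values of the first 3 genes may hold reads of their copies or lack reads given to them.

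Among the hydrolases, Psap, the precursor of the saposins that help lipid-cleaving enzymes, was highest at 69.1 ± 0.854, followed by the aspartic protease Ctsd (57.1) and the cysteine protease Ctsz (48.3). Ctsl (42.0) and Ctsb (26.5) are further cysteine proteases, and Grn (41.2) encodes progranulin. The glycan- and glycogen-cleaving enzymes were at 33.3 for Hexa, the alpha subunit of beta-hexosaminidase, 24.6 for Gaa, the acid alpha-glucosidase of glycogen breakdown, 20.6 for the beta-galactosidase Glb1, 9.62 for the sialidase Neu1 and 6.12 for the alpha-galactosidase Gla. Ctsa, the protein that protects Glb1 and Neu1, was at 21.0.

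Sqstm1, an autophagy receptor, was at 66.5. Npc2, which carries cholesterol inside the lysosome, was at 20.8, above the membrane protein Npc1 that exports it (4.76). Mcoln1 (5.13) and the membrane glycoprotein Lamp2 (4.89) were also low. Tfe3 was at 17.1 ± 1.06 and Tfeb at 10.2 ± 0.682.

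**Figure D2:**
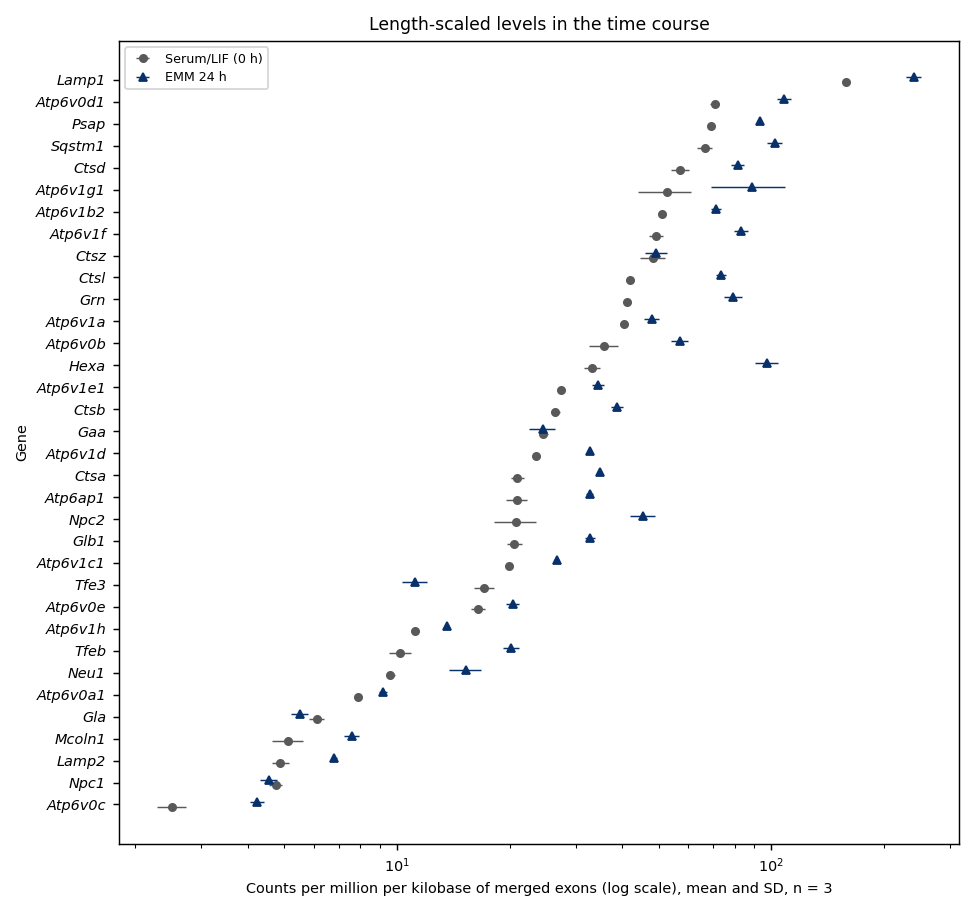
Counts scaled to library size (CPM) per kilobase of merged exons on a log axis for the 34 members in Serum/LIF (circles) and after 24 h of EMM (triangles), mean and SD of 3 libraries, ordered by the Serum/LIF level. Lamp1 is at the top in both, and Hexa moves from 33.3 to 97.1.

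The time course followed the first day after galactose replaced glucose. Lysosome and V-ATPase genes rose by 3 h and more of them were higher at 9 h. A gene was called changed at an adjusted p under 0.01 in edgeR's quasi-likelihood test, adjusted over all 16049 genes tested. At 3 h, 25 members were higher and 2 lower, against 16.3% of all genes higher and 18.2% lower, with a median log2 fold change of 0.38 over the members and -0.01 over all genes. At 9 h, 31 were higher and 1 lower (18.5% and 19.7% of all genes), with medians of 0.58 and 0.00. At 24 h, 29 were higher and 1 lower (21.8% and 22.2% of all genes), with medians of 0.56 and 0.00. Changes were mostly under 2-fold: a log2 fold change beyond 1 in either direction was reached by 3 members at 3 h, 2 at 9 h and 2 at 24 h, against 4.22%, 5.55% and 8.18% of all genes. These 3 comparisons share the Serum/LIF libraries.

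**Figure D3:**
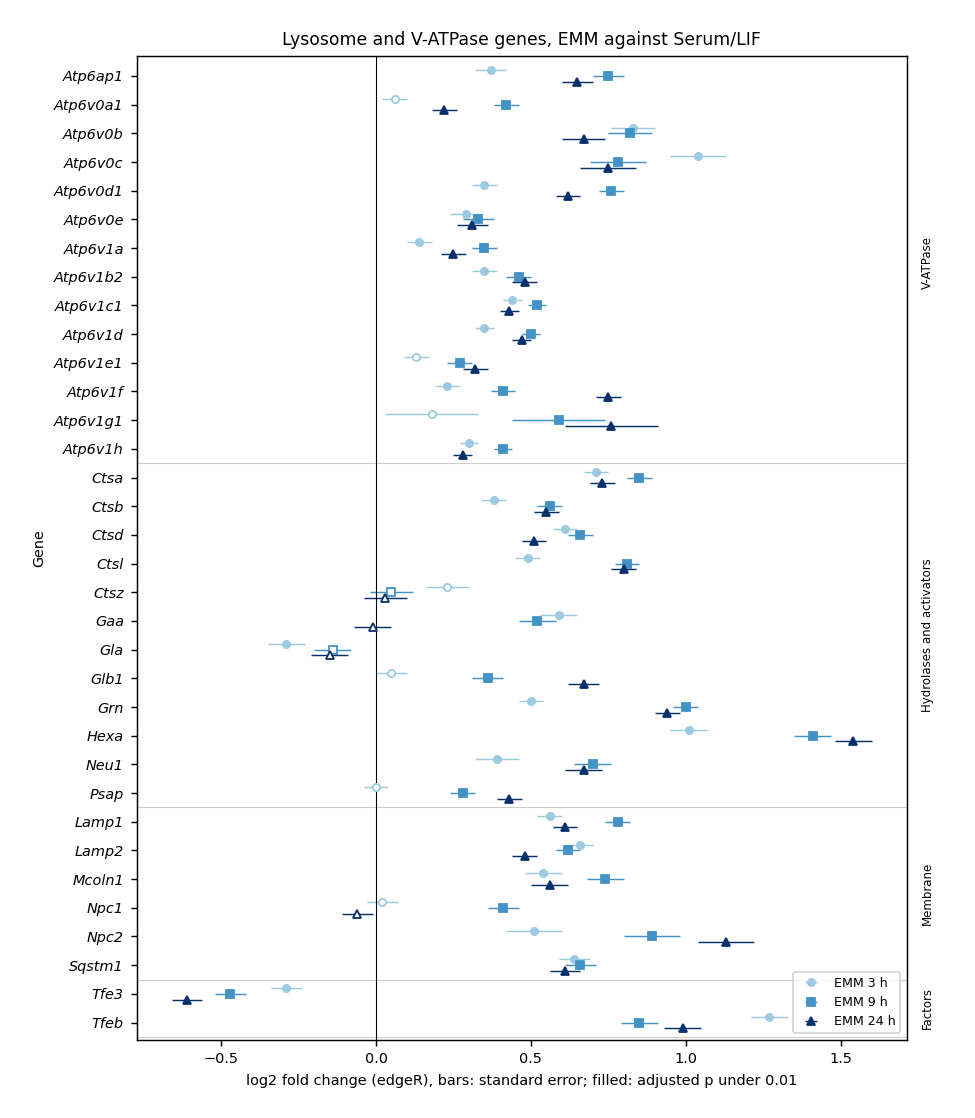
Log2 fold change against Serum/LIF after 3 h (circles), 9 h (squares) and 24 h (triangles) of EMM, with the standard error, for the 34 members by role. Filled symbols passed the adjusted p of 0.01. Tfe3 lies below 0 at all 3 times, and Hexa reaches 1.54 at 24 h.

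Tfeb (chr17:47737030-47792419, GRCm38, as are all gene positions here) showed the largest rise of any member at 3 h. Its normalized counts were 1792, 1763 and 1581 in Serum/LIF, 4111, 4109 and 4183 at 3 h, 3270, 3177 and 2777 at 9 h, and 3577, 3250 and 3344 at 24 h. Every EMM library was above every Serum/LIF library, and the 3 h libraries were above those of the later times. The log2 fold change was 1.27 ± 0.06 (SE, edgeR adjusted p = 7.01e-10) at 3 h, 0.85 ± 0.06 at 9 h and 0.99 ± 0.06 at 24 h.

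Tfe3 (chrX:7762560-7775202), its close relative, moved in the opposite direction. Serum/LIF libraries had 4783, 4915 and 4361 normalized counts, against 3804, 3943 and 3763 at 3 h, 3426, 3448 and 3267 at 9 h, and 3317, 3071 and 2843 at 24 h. No EMM library reached the lowest Serum/LIF library. Tfe3 fell by 0.29 ± 0.05 on the log2 scale at 3 h, by 0.47 ± 0.05 at 9 h and by 0.61 ± 0.05 at 24 h (edgeR adjusted p = 2.56e-07).

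V-ATPase genes rose as a group: 11 of 14 were higher at 3 h, and all 14 at 9 h and at 24 h. At 24 h, their log2 fold changes lay between 0.22 (Atp6v0a1) and 0.76 (Atp6v1g1), with a median of 0.48. Members of both sectors were among them, such as the V0 subunits Atp6v0b (0.67 ± 0.07) and Atp6v0d1 (0.62 ± 0.04) and the V1 subunits Atp6v1b2 (0.48 ± 0.04), Atp6v1d (0.47 ± 0.03) and Atp6v1c1 (0.43 ± 0.03). The accessory subunit Atp6ap1 stood at 0.65 ± 0.05. Atp6v1f (0.75 ± 0.04), Atp6v0c (0.75 ± 0.09) and Atp6v1g1 (0.76 ± 0.15) had the highest values, and each has a near-identical copy as given above. Smaller changes were those of Atp6v1e1 (0.32), Atp6v0e (0.31), Atp6v1h (0.28) and Atp6v1a (0.25). At 3 h, Atp6v1a (0.14 ± 0.04) was called but lost its call under 7 of 14 other settings, among them the removal of Serum/LIF replicate 1 or 2 or of any 1 EMM 3 h library.

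Of the 12 hydrolases and activators, 8 rose and 1 fell at 3 h, 10 rose at 9 h and 9 rose at 24 h. Hexa (chr9:59539540-59565109) led at 9 and 24 h. Its normalized counts were 2040, 1854 and 2000 in Serum/LIF, 4070, 3978 and 3814 at 3 h, 5216, 4949 and 5439 at 9 h, and 5265, 6040 and 5868 at 24 h. The EMM libraries did not overlap with those of Serum/LIF at any time, and the 3 h libraries were below all later ones. Its log2 fold change was 1.01 ± 0.06 at 3 h, 1.41 ± 0.06 at 9 h and 1.54 ± 0.06 at 24 h (2.91-fold, edgeR adjusted p = 1.61e-11).

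Most of the other hydrolases stayed high at 24 h, with log2 fold changes of 0.94 ± 0.04 for Grn, 0.80 ± 0.04 for Ctsl, 0.73 ± 0.04 for Ctsa, 0.67 ± 0.06 for Neu1, 0.67 ± 0.05 for Glb1, 0.55 ± 0.04 for Ctsb, 0.51 ± 0.04 for Ctsd and 0.43 ± 0.04 for Psap. Glb1 (0.05 ± 0.05) and Psap (0.00 ± 0.04) had not passed the test at 3 h. Gaa, singled out after its values were seen, rose early and was back by 24 h: 3551, 3519 and 3376 normalized counts in Serum/LIF, 5374, 5199 and 5201 at 3 h, 5294, 5103 and 4605 at 9 h, and 3761, 3206 and 3415 at 24 h. The 24 h libraries overlapped those of Serum/LIF (log2 fold change -0.01 ± 0.06, edgeR adjusted p = 0.913), while 3 h and 9 h did not.

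Gla (chrX:134588149-134601125) was the one hydrolase that fell. It had 587, 620 and 564 normalized counts in Serum/LIF, 510, 465 and 478 at 3 h, 527, 561 and 517 at 9 h and 510, 561 and 524 at 24 h. All EMM libraries were below all Serum/LIF libraries, yet only the 3 h difference was called (-0.29 ± 0.06, edgeR adjusted p = 0.00152), and it lost the call without Serum/LIF replicate 2 or without EMM 3 h replicate 2. Ctsz (chr2:174427493-174439039) was not called at any time, with 2136, 2158 and 1880 normalized counts in Serum/LIF, 2440, 2368 and 2410 at 3 h, 2252, 2225 and 1929 at 9 h and 2250, 1977 and 2069 at 24 h. Its 3 h libraries were above those of Serum/LIF (0.23 ± 0.07, edgeR adjusted p = 0.0108), and the later groups overlapped with them.

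Among the 6 membrane proteins, carriers and receptors, 5 rose at 3 h, 6 at 9 h and 5 at 24 h. Npc2 (singled out after its values were seen) moved from 0.51 ± 0.09 at 3 h to 0.89 ± 0.09 at 9 h and 1.13 ± 0.09 at 24 h on the log2 scale. At 24 h, Lamp1 (0.61 ± 0.04), Sqstm1 (0.61 ± 0.05), Mcoln1 (0.56 ± 0.06) and Lamp2 (0.48 ± 0.04) were also higher. Lamp2 (chrX:38401357-38456454) had normalized counts of 1297, 1423 and 1417 in Serum/LIF, 2250, 2091 and 2181 at 3 h, 2108, 2106 and 2143 at 9 h, and 1886, 1951 and 1924 at 24 h, so that all EMM libraries were above all Serum/LIF libraries.

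Mcoln1 (chr8:3500457-3515232) had 1236, 1177 and 1025 normalized counts in Serum/LIF, 1720, 1655 and 1621 at 3 h, 2034, 1813 and 1878 at 9 h and 1778, 1629 and 1667 at 24 h. Neu1 (chr17:34931253-34935953) had 1091, 1057 and 1036 in Serum/LIF, 1462, 1369 and 1355 at 3 h, 1816, 1684 and 1673 at 9 h and 1798, 1498 and 1774 at 24 h. Both genes were higher in every EMM library than in any Serum/LIF library. Ctsb (chr14:63122462-63145923) had 4792, 4822 and 4575 in Serum/LIF, 6378, 5995 and 6154 at 3 h, 7212, 6936 and 6775 at 9 h and 7201, 6868 and 6717 at 24 h, again without overlap. Npc1 was higher at 9 h alone: 1563, 1544 and 1664 in Serum/LIF, 1663, 1593 and 1582 at 3 h, 2183, 2081 and 2069 at 9 h (0.41 ± 0.05), and 1587, 1435 and 1545 at 24 h.

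Compared directly, 24 h differed from 3 h in 20 members. Of these, 16 were higher at 24 h (20.8% of all genes) and 4 were lower (19.2%). Glb1 (0.62 ± 0.05), Npc2 (0.62 ± 0.09), Hexa (0.53 ± 0.05), Atp6v1f (0.52 ± 0.04), Grn (0.44 ± 0.04) and Psap (0.43 ± 0.04) gained further. Gaa (-0.60 ± 0.06), Tfe3 (-0.32 ± 0.05), Tfeb (-0.29 ± 0.06) and Lamp2 (-0.18 ± 0.04) were lower at 24 h than at 3 h.

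Other markers moved over the same hours. Summed over 8 genes of primitive endoderm (an extra-embryonic lineage that arises beside the epiblast), normalized counts were 463 to 493 in Serum/LIF, 520 to 544 at 3 h, 561 to 629 at 9 h and 774 to 792 at 24 h, with none at 0 in every library of a group. Of the 8, 1 was called higher at 3 h, 3 higher and 1 lower at 9 h, and 4 and 1 at 24 h. Sox7 had means of 97.7 in Serum/LIF and 307 at 24 h, and Amn 46.6 and 26.3. The summed trophoblast markers were 1980 to 2050 in Serum/LIF, 1850 to 1860 at 3 h, 2400 to 2570 at 9 h and 2520 to 2590 at 24 h, where Elf5 was at 0. At 24 h, 3 of 7 tested were higher and 2 lower, with Tfap2c at means of 1280 and 1710 and Cdx2 at 70.7 and 33.8. The 8 fibroblast markers summed to 1810 to 1900 in Serum/LIF and 1270 to 1490 at 24 h. Of the 8 ESC markers, 1 was called higher and 3 lower at 3 h, 1 and 4 at 9 h, and 1 and 3 at 24 h. Esrrb had means of 22800 in Serum/LIF and 34300 at 3 h, and Sox2 20800 and 13700. The part of all these markers in the change of the lysosomal genes was not tested.

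The wider pathway moved less evenly. Of 117 other lysosomal, V-ATPase and autophagy genes, 107 passed the filter, and 41 rose and 15 fell at 3 h, 56 and 7 at 9 h, and 52 and 11 at 24 h, where 21.8% of all genes rose and 22.2% fell. The pathway genes named here and for the passages are the called ones with the largest rise or fall in their list. At 24 h, other lysosomal membrane proteins had 13 of 20 higher, led by Cd63 (1.10 ± 0.05), a tetraspanin of late endosomes. Other hydrolases had 16 of 35 higher and 5 lower, the called ones ranging from the peptidase Dpp7 (1.28 ± 0.07) to the beta-glucuronidase Gusb (-0.73 ± 0.07). Other V-ATPase subunits and assembly factors had 7 of 13 higher and 2 lower, with the called isoforms Atp6v1g2 (0.88 ± 0.19) and Atp6v0a4 (-0.47 ± 0.11) at the ends.

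Among the Ragulator and Rag genes, which tether the growth kinase mTORC1 to the lysosome, 4 of 9 were higher and 1 lower, with Rragc at 0.81 ± 0.03 and Rragb at -0.27 ± 0.05. Autophagy genes had 9 of 23 higher and 2 lower, with the receptor Optn at 1.16 ± 0.07 and Gabarapl1, which marks autophagosome membranes, at -0.50 ± 0.11. Of 6 genes for mannose 6-phosphate tagging and sorting of hydrolases, 2 were higher and 1 lower, Gnptg at 0.72 ± 0.08 and Gnptab at -0.19 ± 0.05, both subunits of the tagging enzyme, counts near the shares of all genes. Mitf, another MiT/TFE factor, was at 0.59 ± 0.09, and Tfec did not pass the filter.

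The passage experiment asked how long-term EMM culture compares with Serum/LIF and with 2i/LIF. Most members were higher in EMM than in Serum/LIF at both passages, and none was called lower by edgeR. At P10, 25 were higher and 0 lower, against 18.7% higher and 18.7% lower over the 16054 genes tested, and the medians were 0.61 over the members and 0.01 over all genes. At P20, 25 were higher and 0 lower, against 13.6% and 12.5% of all genes, with medians of 0.72 and 0.00. At an unadjusted p under 0.05, 3 members lay lower in EMM at P10, Npc1 (-0.36 ± 0.11), Tfe3 (-0.29 ± 0.12) and Ctsz (-0.22 ± 0.09), and 0 at P20, and DESeq2 called 1 lower at P10 and 0 at P20. A log2 fold change beyond 1 was reached by 9 members at P10 and 8 at P20, against 17.1% and 9.63% of all genes.

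Markers of other cells also differed between the media. Summed over 8 fibroblast genes, led by the collagen Col1a1, normalized counts were 2250 to 2680 in Serum/LIF at P10 and 3590 to 7130 at P20, but 286 to 364 in EMM at P10, 153 to 204 in EMM at P20, and 45.0 to 98.7 over both 2i/LIF groups. In EMM, 5 of the 6 tested fibroblast genes were lower at each passage, with a median log2 fold change over the 6 of -6.69 at P10 and -5.17 at P20. At P10, Col1a1 had between 1570 and 2100 normalized counts in Serum/LIF and between 4.82 and 18.3 in EMM. Thy1 was called higher at P10, with 259 to 357 in EMM against 115 to 167 in Serum/LIF, and made up most of the EMM sum. Postn was at 0 in all EMM libraries of both passages, with Twist2 and Lum also at 0 at P10. Trophoblast markers summed to 1400 to 1570 in Serum/LIF at P10 against 515 to 665 in EMM, and to 1300 to 1660 at P20 against 1210 to 1280. At each passage 3 of the 7 tested were called lower, with medians of -0.49 and -1.53. Most of the P20 sum was Tfap2c (means 854 and 960), while Krt7 (157 and 18.1), Hand1 (108 and 7.21) and Cdx2 (37.9 and 4.85) had lower means in EMM. Primitive endoderm markers summed to 221 to 268 in Serum/LIF at P10 against 128 to 143 in EMM, and to 255 to 339 at P20 against 250 to 382. Of the 7 tested, 1 was called higher and 1 lower at P10, with Dab2 at means of 118 and 20.7 and Sox7 at 4.89 and 31.9, and 1 was called higher at P20. Of 8 ESC markers, 4 were higher in EMM at P10 and 2 lower at P20. Their part in the differences from Serum/LIF was not tested.

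**Figure D4:**
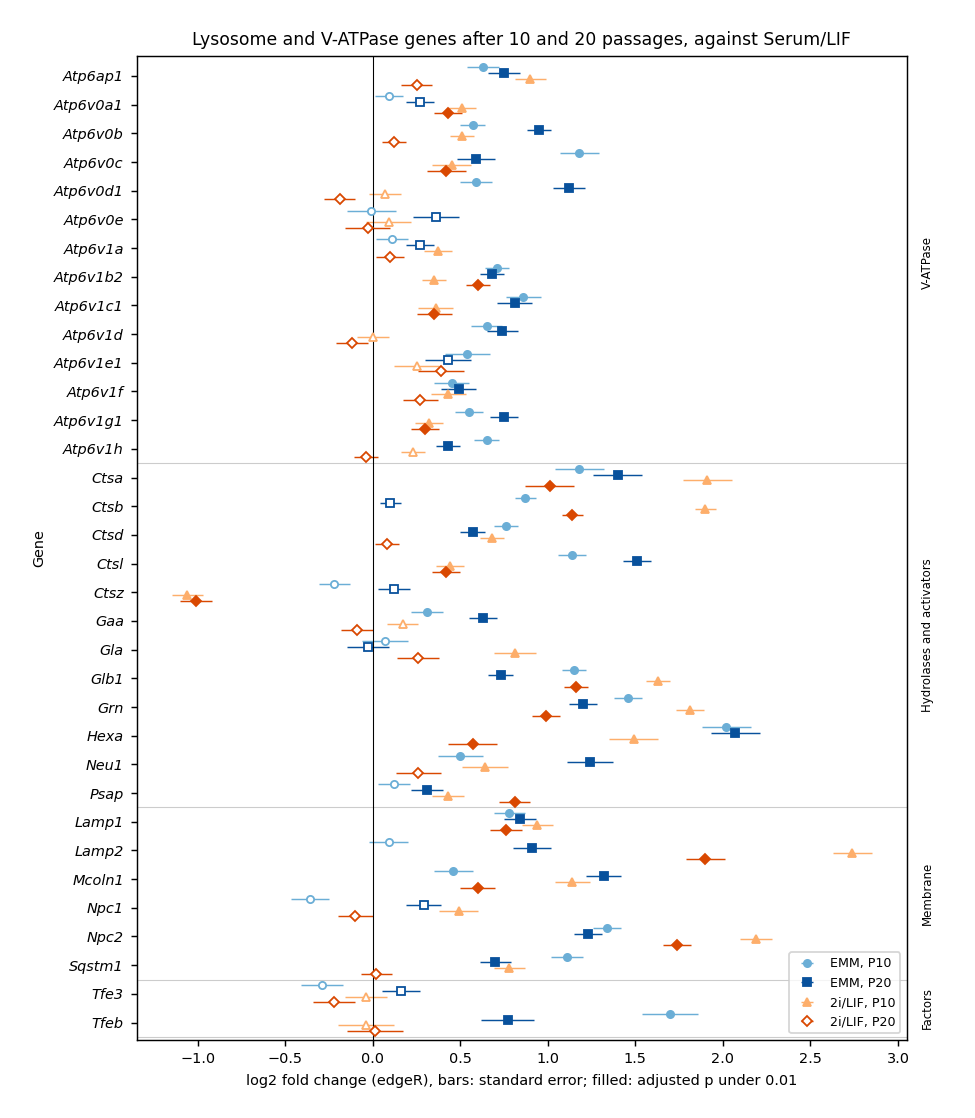
Log2 fold change against Serum/LIF of the same passage for EMM (blue) and 2i/LIF (orange) at P10 and P20, with the standard error, for the 34 members by role. Hexa lies near 2 in EMM at both passages, Lamp2 and Npc2 lie farthest to the right in 2i/LIF, and Ctsz lies near -1 in 2i/LIF.

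Hexa again had the largest rise in EMM. At P10 its normalized counts were 643, 828 and 746 in Serum/LIF, 2835, 2936 and 3232 in EMM, and 1697, 2332 and 2194 in 2i/LIF. At P20 they were 759, 724 and 563 in Serum/LIF, 2875, 2743 and 3007 in EMM, and 890, 925 and 1224 in 2i/LIF. The 3 media did not overlap at either passage. The log2 fold change of EMM against Serum/LIF was 2.02 ± 0.14 at P10 and 2.07 ± 0.14 at P20 (4.20-fold, edgeR adjusted p = 4.86e-09).

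Tfeb was higher in EMM than in both other media. At P10 it had 557, 540 and 412 normalized counts in Serum/LIF, 1508, 1672 and 1730 in EMM and 614, 514 and 356 in 2i/LIF. At P20 it had 545, 522 and 576 in Serum/LIF, 872, 1014 and 901 in EMM and 538, 640 and 469 in 2i/LIF. EMM libraries were above all others of their passage, and Serum/LIF and 2i/LIF overlapped. Tfeb rose by 1.70 ± 0.16 against Serum/LIF at P10 and by 0.77 ± 0.15 at P20 on the log2 scale.

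Tfe3 did not pass the test against Serum/LIF at either passage. Its counts at P10 were 1616, 1502 and 1615 in Serum/LIF, 1467, 1273 and 1104 in EMM and 1414, 1616 and 1559 in 2i/LIF. At P20 they were 1649, 1508 and 1568 in Serum/LIF, 1772, 1771 and 1742 in EMM and 1027, 1532 and 1452 in 2i/LIF. EMM was below Serum/LIF in all libraries at P10 and above it in all at P20 (0.16 ± 0.11, edgeR adjusted p = 0.284).

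V-ATPase genes were higher in EMM for 11 of 14 members at P10 and 10 of 14 at P20. At P20, Atp6v0d1 led at 1.12 ± 0.09, followed by Atp6v0b (0.95 ± 0.07), Atp6v1c1 (0.81 ± 0.10), Atp6ap1 (0.75 ± 0.09), Atp6v1g1 (0.75 ± 0.08), Atp6v1d (0.74 ± 0.09), Atp6v1b2 (0.68 ± 0.07), Atp6v0c (0.59 ± 0.11), Atp6v1f (0.49 ± 0.10) and Atp6v1h (0.43 ± 0.07). Atp6v0a1 (0.09 ± 0.08 at P10, 0.27 ± 0.08 at P20), Atp6v0e (-0.01 ± 0.14, 0.36 ± 0.13) and Atp6v1a (0.11 ± 0.09, 0.27 ± 0.08) passed the test at neither passage. Atp6v1e1 was called at P10 (0.54 ± 0.13) and not at P20 (0.43 ± 0.13), and its P10 call was lost without EMM replicate 2 of P10.

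Of the hydrolases, 9 of 12 members were higher at each passage. Besides Hexa, log2 fold changes beyond 1 were those of Grn (1.46 ± 0.08), Ctsa (1.18 ± 0.14), Glb1 (1.15 ± 0.07) and Ctsl (1.14 ± 0.08) at P10, and of Ctsl (1.51 ± 0.08), Ctsa (1.40 ± 0.14), Neu1 (1.24 ± 0.13) and Grn (1.20 ± 0.08) at P20. Ctsd was at 0.76 ± 0.07 and 0.57 ± 0.07. Gaa was higher at P10 (0.31 ± 0.09), where 8 of 13 other settings lost the call, among them the removal of EMM replicate 1 or 2 or of any 1 Serum/LIF library of P10, and at P20 (0.63 ± 0.08). Neu1 was called at P10 (0.50 ± 0.13) and lost the call without EMM replicate 3 or without Serum/LIF replicate 1 or 2. Psap was called at P20 (0.31 ± 0.09, edgeR adjusted p = 0.00862), where 10 of 13 other settings lost the call, among them the removal of any 1 of the 6 libraries and the fit with the replicate number as a block.

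Gla and Ctsz were called at neither passage in EMM against Serum/LIF. Gla had 215, 230 and 189 normalized counts in Serum/LIF, 198, 234 and 243 in EMM and 367, 372 and 376 in 2i/LIF at P10, and 231, 207 and 236, 238, 213 and 208, and 277, 224 and 308 in the same order at P20. Ctsz had 830, 836 and 831 in Serum/LIF, 694, 686 and 770 in EMM and 466, 388 and 354 in 2i/LIF at P10. At P20 Ctsz had 752, 791 and 776 in Serum/LIF, 855, 826 and 837 in EMM and 421, 382 and 356 in 2i/LIF. In 2i/LIF, Ctsz was lower than in either other medium in every library.

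Sqstm1 (1.11 ± 0.09 at P10, 0.70 ± 0.09 at P20), Npc2 (1.34 ± 0.08, 1.23 ± 0.08) and Lamp1 (0.78 ± 0.09, 0.84 ± 0.09) were higher in EMM than in Serum/LIF at both passages. Among the 117 pathway genes outside the members, 44 of 107 tested were higher and 17 lower at P10, against 18.7% each way over all genes, and 48 were higher and 6 lower at P20, against 13.6% and 12.5%. Other hydrolases split at 13 higher and 8 lower of 36 at P10, the called ones ranging from the beta-mannosidase Manba (1.91 ± 0.10) to Ctso (-2.73 ± 0.64), a cysteine protease with mean normalized counts of 2.09 and 15.0, and at 15 and 4 at P20, led by the iduronidase Idua (1.67 ± 0.16).

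Other membrane proteins had 10 of 19 higher and 1 lower at P10, the called ones ranging from Laptm5 (2.42 ± 0.16) to the lipid transporter Abca2 (-0.67 ± 0.10), and 11 higher at P20. Optn had the largest called rise among autophagy genes at P10 (1.86 ± 0.15) and P20 (2.16 ± 0.15), with 10 of 23 higher and 4 lower at P10, where Ulk2 had the largest called fall (-1.54 ± 0.24), and 9 higher at P20. Gnptg was higher at both (1.47 ± 0.14, 1.18 ± 0.13), among 2 higher and 3 lower of 6 sorting genes at P10 and 4 higher at P20, while the mannose 6-phosphate receptor Igf2r was lower at P10 (-0.72 ± 0.11) and higher at P20 (0.43 ± 0.10). Mitf was at 2.28 ± 0.11 at P10 and 0.51 ± 0.11 at P20.

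Ragulator and Rag genes had 3 of 9 higher at P10, led by Rragc (0.84 ± 0.08), and 5 at P20, led by Rragd (1.46 ± 0.11). Of the other V-ATPase genes, 5 of 13 were higher and 1 lower at P10, and 3 and 2 at P20, near the shares of all genes at P20. Among the called ones, Atp6ap2, an accessory subunit, had the largest rise at both (1.02 ± 0.08, 0.81 ± 0.08), and the largest falls were those of the isoforms Atp6v0e2 at P10 (-1.92 ± 0.24) and Tcirg1 at P20 (-0.99 ± 0.15).

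**Figure D5:**
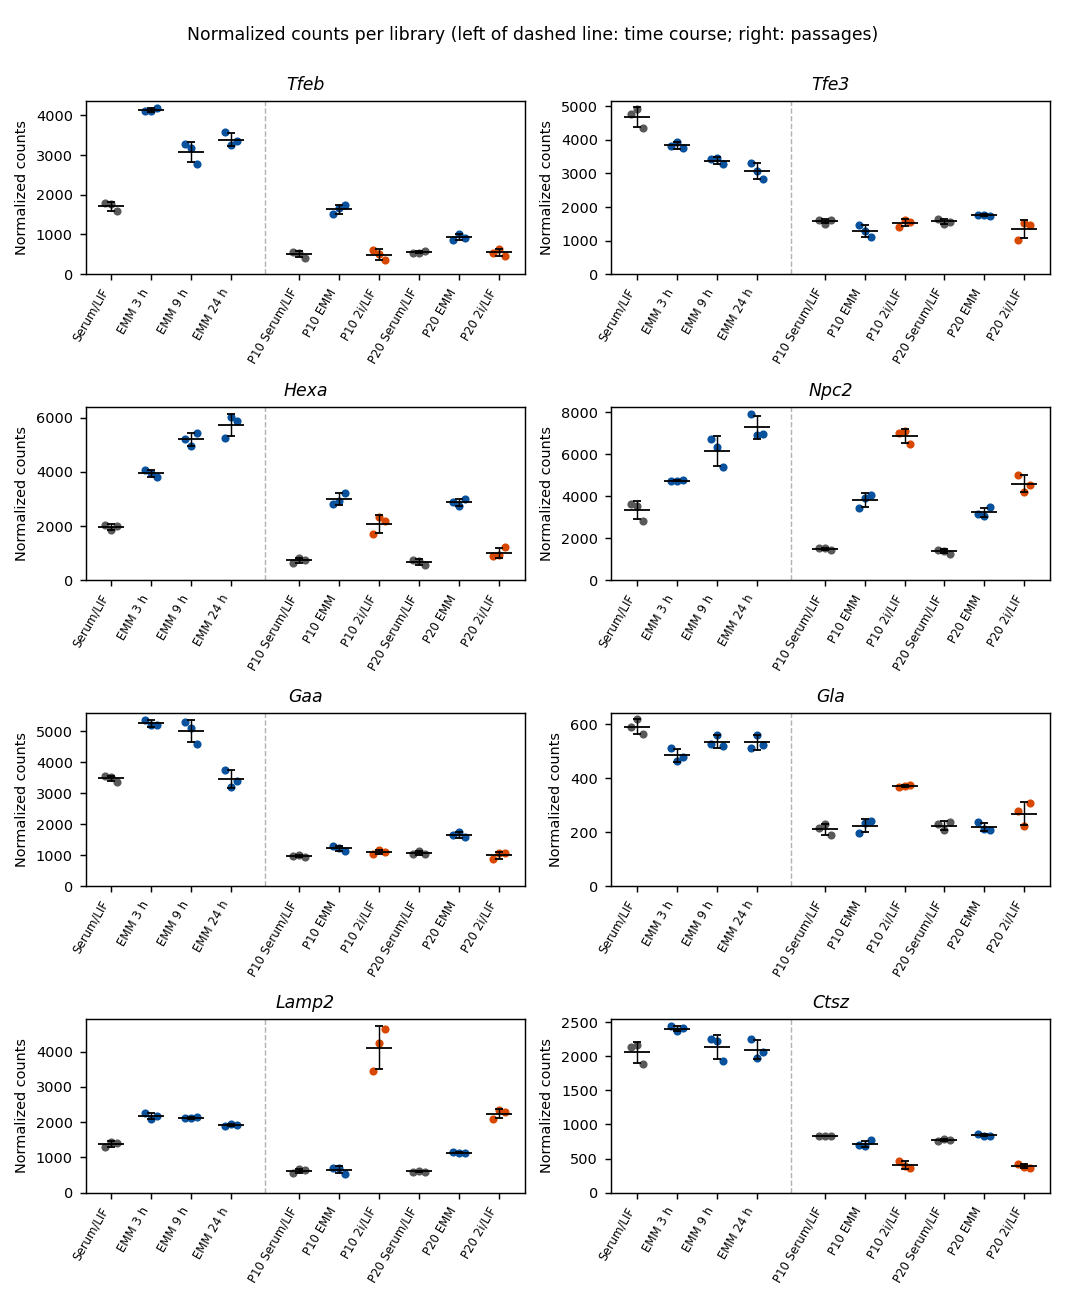
Normalized counts of 8 members in each library (points), with the mean and SD of 3 libraries, for the time course (left of the dashed line) and the passages (right), which were normalized separately. Tfeb and Hexa are higher in EMM in both experiments, Tfe3 lies below Serum/LIF at all 3 times of the time course, and among the passages Lamp2 is highest and Ctsz lowest in 2i/LIF.

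The difference between EMM and Serum/LIF was then compared between passages. Of the 34 members, 8 were called, where 2362 of 16054 genes were. In 5 the signed log2 difference was larger at P20 (8.28% of all genes), and for Npc1 among them it changed sign. In 3 it was smaller (6.43% of all genes), near that share. In the same comparison 6 of the 8 ESC markers were called lower, with a median of -0.69. Pou5f1 had means of 17900 in Serum/LIF and 27400 in EMM at P10, and 17900 in both at P20. Trophoblast markers had 2 called higher and 1 lower, primitive endoderm markers 1 and 1, and 1 fibroblast marker was called lower. Their part in the members' shifts was not tested. Tfeb had the largest shift, with its log2 fold change smaller by 0.93 ± 0.22 at P20 than at P10, as its EMM counts above show. Ctsb fell by 0.77 ± 0.08 in the same sense. Its counts at P10 were 1133, 1186 and 1158 in Serum/LIF and 2088, 2090 and 2195 in EMM, and at P20 1476, 1440 and 1428 in Serum/LIF and 1531, 1567 and 1557 in EMM, so the libraries lay far apart at P10 and close, without overlap, at P20. Glb1 also had a smaller difference at P20 (-0.42 ± 0.10).

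Mcoln1 gained at P20. It had 392, 419 and 390 normalized counts in Serum/LIF and 573, 519 and 561 in EMM at P10, and 435, 514 and 430 in Serum/LIF and 1240, 1077 and 1144 in EMM at P20. The 2 media did not overlap at either passage, and the log2 fold change was larger at P20 by 0.86 ± 0.15 (edgeR adjusted p = 0.00028). Neu1, with 248, 297 and 330 in Serum/LIF and 370, 382 and 495 in EMM at P10, and 264, 296 and 258 against 662, 609 and 664 at P20, shifted by 0.74 ± 0.18.

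Lamp2 did not pass the test between EMM and Serum/LIF at P10, with 704, 708 and 541 normalized counts in EMM against 556, 662 and 628, whose ranges overlapped. At P20 it was higher in every EMM library, 1140, 1121 and 1127 against 591, 624 and 591, and the shift was 0.81 ± 0.15. Npc1 had 525, 502 and 522 in EMM against 604, 668 and 714 in Serum/LIF at P10, and 1056, 1025 and 1021 against 776, 921 and 830 at P20. It lay below Serum/LIF at P10 and above it at P20 in all libraries, neither called, with a shift of 0.65 ± 0.15. Atp6v0d1 shifted by 0.52 ± 0.13. Leaving out 1 library left between 3 and 9 members called: 3 without P10 Serum/LIF replicate 3, 4 without P10 EMM replicate 2, P20 EMM replicate 3 or P20 Serum/LIF replicate 3, and 5 without P10 Serum/LIF replicate 2 or P20 EMM replicate 1 or 2. Only the calls of Mcoln1, Lamp2 and Ctsb were kept under all 19 other settings.

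Against 2i/LIF, EMM showed no common direction at P10. There, 11 members were higher and 11 lower in EMM (22.9% and 22.2% of all genes), with a median log2 fold change of -0.04, and 3 were beyond 1 in size (22.1% of all genes). At P20, 18 were higher and 5 lower (25.7% and 22.9% of all genes), with a median of 0.39, and 5 were beyond 1 (25.3%). Markers of other cells moved here too. At P20, 6 of 7 primitive endoderm markers were higher in EMM (median 2.37), as were 4 of 7 trophoblast markers, with 1 lower, and 3 of 6 fibroblast markers, while at P10 the calls were 2 higher and 2 lower, 2 and 2, and 1 and 1. Of the ESC markers, 5 were higher and 1 lower at P10, and 3 and 2 at P20. Their part was not tested.

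Tfeb was the highest member in EMM against 2i/LIF at P10 (1.74 ± 0.16), followed by Ctsz (0.84 ± 0.09), Atp6v0c (0.73 ± 0.11) and Ctsl (0.70 ± 0.08). At P20, Hexa (1.50 ± 0.14), Atp6v0d1 (1.30 ± 0.09), Ctsz (1.13 ± 0.09) and Ctsl (1.09 ± 0.08) led. V-ATPase genes accounted for 6 of the 11 higher members at P10.

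Lamp2 was the lowest at P10. It had 3452, 4258 and 4633 normalized counts in 2i/LIF, far above the EMM libraries, and a log2 fold change of EMM against 2i/LIF of -2.65 ± 0.11 (edgeR adjusted p = 1.42e-12). At P20, its 2i/LIF counts were 2093, 2333 and 2297 and the log2 fold change was -0.99 ± 0.10. Ctsb was lowest at P20, with 3069, 3353 and 3114 in 2i/LIF (-1.04 ± 0.06), after 4156, 4278 and 4539 at P10 (-1.03 ± 0.06). Npc2 (-0.85 ± 0.08, -0.50 ± 0.08), Glb1 (-0.48 ± 0.07, -0.43 ± 0.07) and Psap (-0.31 ± 0.09, -0.50 ± 0.09) were also below 2i/LIF in the EMM groups of both passages.

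Mcoln1 and Npc1 crossed over between passages. Mcoln1 had 758, 966 and 916 normalized counts in 2i/LIF at P10, above all EMM libraries (-0.68 ± 0.10), and 634, 766 and 681 at P20, below all EMM libraries (0.73 ± 0.10). Npc1 had 818, 937 and 1030 in 2i/LIF at P10 (-0.85 ± 0.11) and 648, 854 and 834 at P20 (0.40 ± 0.10). Neu1, which did not cross, had 406, 498 and 450 in 2i/LIF at P10, overlapping with EMM, and 381, 328 and 285 at P20, below it (0.98 ± 0.13).

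2i/LIF was also compared with Serum/LIF. At P10, 25 members were higher and 1 lower (26.4% and 25.6% of all genes), with a median of 0.47, and 9 were beyond 1 (26.4% of all genes). At P20, 16 were higher and 1 lower (21% and 23.2% of all genes), with a median of 0.29, and 6 were beyond 1 (22.3%). Scaled by library totals alone, the P20 median was 0.17 and 13 members were called in place of 17. Of the other-cell markers in 2i/LIF, all 6 fibroblast genes tested were lower at each passage. Primitive endoderm genes had 2 higher and 4 lower of 7 at P10 (median -1.55) and 4 lower at P20 (-1.66). Trophoblast genes had 1 higher and 4 lower of 7 at P10 (median -1.47), with Cdx2 at means of 59.8 in Serum/LIF and 264 in 2i/LIF, and 6 lower at P20 (-3.34). ESC markers had 2 higher and 3 lower of 8 at P10, and 1 and 3 at P20. Their part in the members' values was not tested. These comparisons share their Serum/LIF libraries with those of EMM.

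Lamp2 rose most in 2i/LIF, by 2.74 ± 0.11 at P10 and 1.90 ± 0.11 at P20 on the log2 scale, followed by Npc2 (2.19 ± 0.09, 1.74 ± 0.08). Among the others beyond 1 at P10 were Ctsb (1.90 ± 0.06, 1.14 ± 0.06), Glb1 (1.63 ± 0.07, 1.16 ± 0.07), Ctsa (1.91 ± 0.14, 1.01 ± 0.14) and Grn (1.81 ± 0.08, 0.99 ± 0.08). Ctsz was the one member that fell, by 1.06 ± 0.09 at P10 and by 1.01 ± 0.09 at P20. Tfeb (-0.04 ± 0.16, 0.01 ± 0.16) and Tfe3 (-0.04 ± 0.12, -0.22 ± 0.12) passed the test at neither passage. Gla was higher at P10 (0.81 ± 0.12) and not called at P20 (0.26 ± 0.12).

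At P20, whole chromosomes moved in 2i/LIF. The median log2 fold change of 2i/LIF against Serum/LIF was 0.45 over 833 genes of chromosome 8 and 0.33 over 746 of chromosome 6, against -0.18 to 0.08 on the others. Lamp1, Mcoln1, Atp6v0d1 and Atp6v1b2 are on chromosome 8, and Atp6v1e1 and Atp6v1f on chromosome 6. Lamp1 (0.76 ± 0.09), Mcoln1 (0.60 ± 0.10) and Atp6v1b2 (0.60 ± 0.07) were called there and Atp6v0d1 (-0.19 ± 0.09), Atp6v1e1 (0.39 ± 0.13) and Atp6v1f (0.27 ± 0.10) were not. In EMM against 2i/LIF at P20, the medians were -0.29 on chromosome 8 and -0.34 on chromosome 6, against -0.03 to 0.17 on the others. In EMM against Serum/LIF at P20, they were 0.13 on chromosome 8 and -0.03 on chromosome 6, against -0.13 to 0.04. The part of the chromosomes in the members' values of these comparisons was not tested. Without the 6 genes, 14 of 28 members were called in either direction in 2i/LIF against Serum/LIF at P20, where 7088 of 16054 genes were called, and 21 of 28 in EMM against 2i/LIF at P20, where 7804 were.

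Some members overlap other genes. Pltp lies opposite Ctsa over 1515 bases, Grtp1 opposite Lamp1 over 3317, Rmc1 opposite Npc1 over 967, Fdft1 opposite Ctsb over 774 and Mrnip opposite Sqstm1 over 750. On the same strand, Tmppe overlaps Glb1 over 6172 bases and Gm49369 overlaps Ctsd over 6757, which no strand setting separates. Transcripts of Gm49369 and Ctsd share 671 bases at 100% identity. The pseudogene Gm49230 matches Ctsl over 395 bases at 100%. Whether the time-course counting used strand is not given in the sources used here, so reads of opposite genes may not be separated there.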

How the data were processed

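The members and the other gene lists were chosen with earlier results of these data known. For the time course the authors deposited raw counts per gene. The passage table that the authors deposited holds estimated counts, of which 9.982% were not whole numbers, and these were rounded. The submitters' processing notes name STAR, featureCounts and DESeq2 on mm10 for the time course and STAR, Salmon and DESeq2 on mm10 for the passages, whereas the study's methods name STAR and HTSeq and speak of reads assigned to introns and exons. Which of these classes the tables hold is not given in the sources used here, nor is the strand setting of the time course.

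Each experiment was fitted whole with edgeR 4.0.16 in R 4.3.3 (filterByExpr, TMM scaling, quasi-likelihood test) and p-values were adjusted over all genes tested by Benjamini-Hochberg. The standard error is the log2 fold change divided by the square root of its F statistic. Normalized counts are scaled to the mean library size of their experiment and are not comparable between the 2 experiments. A call needed an adjusted p under 0.01. The study's methods describe the 3 libraries of a condition as biological replicates from separate experiments, while the labels only number them. Depth was 24074132 to 35301962 counts per library in the time course and 6944918 to 27912959 in the passages. The fit was tested on simulated data. Values in every library were given for Tfeb, Tfe3, the called members with the largest rise and fall in each main comparison and up to 6 members called between passages. Alternatives were other scalings and filters, DESeq2 1.42.0, a replicate block, an adjusted p under 0.05, fits on the compared groups alone, the members outside chromosomes 6 and 8, and the removal of each library. Exon lengths and overlaps came from GENCODE M21 (GRCm38), promoters from RefSeq (GRCm38.p6).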

Additional observations from a re-analysis of the deposited data

Results flagged for a closer look

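In 8 of 34 members the signed log2 difference between EMM and Serum/LIF was itself different at P20 and P10 by edgeR's test of the interaction. There, 2362 of 16054 genes were called. It was larger in 5 members and smaller in 3, against 8.28% and 6.43% of all genes, the latter count near that share. The log2 difference was larger at P20 for the calcium channel Mcoln1 (by 0.86), the membrane glycoprotein Lamp2 (0.81), the sialidase Neu1 (0.74), the cholesterol exporter Npc1 (0.65) and the V0 subunit Atp6v0d1 (0.52). For Npc1 it changed sign, from below Serum/LIF at P10 to above it at P20, neither called. The log2 difference was smaller at P20 for the beta-galactosidase Glb1 (-0.42), the protease Ctsb (-0.77) and Tfeb (-0.93). Leaving out 1 library left between 3 and 9 called members, and the calls of Mcoln1, Lamp2 and Ctsb alone held under all 19 other settings. The labels do not say whether P10 and P20 cells were grown side by side, so passage and time of culture cannot be told apart.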

How the results depend on the processing

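Over 255 pairs of a member and a comparison in which it was called, 3472 other settings all kept the direction, 3294 kept the call and 178 lost it, and 216 pairs lost no call under any setting. The count of members called between passages moved most, from 8 to 13 at an adjusted p under 0.05, and from 3 to 9 when 1 library was left out. Without 1 library, the other counts ran from 26 to 27 at 3 h, 31 to 32 at 9 h, 30 to 30 at 24 h, 14 to 19 for 24 h against 3 h, 22 to 24 (P10) and 24 to 24 (P20) for EMM against Serum/LIF, 20 to 22 and 21 to 24 for EMM against 2i/LIF, and 23 to 27 and 13 to 17 for 2i/LIF against Serum/LIF. Scaling by library totals alone shifted the median of all genes in 2i/LIF against Serum/LIF at P20 to -0.12 from -0.01, and the members' median there was 0.17. No fit at another depth was made, so what depth limits was not tested.

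The replicate block by the number in the sample titles gave 28 called members at 3 h, 32 at 9 h, 30 at 24 h, 20 for 24 h against 3 h, 26 (P10) and 24 (P20) for EMM against Serum/LIF, 22 and 22 for EMM against 2i/LIF, 26 and 16 for 2i/LIF against Serum/LIF and 9 between passages. The time-course descriptions number the libraries differently, and a block on them gave 26, 32, 30 and 20. The samples share only a number: correlations of same-number deviations ran from -0.499 to 0.598 by title and -0.433 to 0.679 by description in the time course and from -0.482 to 0.521 in the passages. A library correlated best with its own number in 15 of 36, 14 of 36 and 32 of 90 cases.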

Other observations

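Mitf, a MiT/TFE factor that is no member, was not called at 3 h of EMM (0.13 on the log2 scale) and was higher at 24 h (0.59), P10 (2.28) and P20 (0.51) against Serum/LIF. It was higher still in 2i/LIF against Serum/LIF (2.97 at P10 and 2.73 at P20). Set against 2i/LIF, EMM gave -0.69 at P10 and -2.22 at P20, both called lower.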
